A study of Mus musculus with 6 samples.

Results

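The basic helix-loop-helix PAS (bHLH-PAS) family was examined through 9 genes in macrophages from wild-type (WT) and Bach1 knockout (KO) mice. Arnt2 was chosen from its measured difference between KO and WT arrays, and Arnt, Arntl, Ahr, Ahrr, Hif1a, Epas1, Clock and Npas2 were added as members of the same family, with that difference known. The 9 genes were read by 14 probes, out of 26413 probes with a gene symbol for 20018 symbols. Of these 14 probes, 13 cleared background (the scanner software's mark "well above background") on 3 or more of the 6 arrays, and each of the 9 genes kept at least 1 such probe, so all 9 were among the 15736 genes tested.

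The study hybridised 1 one-colour Agilent array per mouse, with total RNA of bone marrow cells grown for 5 days at 37 °C in 5% CO2 with 10% serum and GM-CSF at 10 ng/mL. GM-CSF is the granulocyte-macrophage growth factor, a cytokine that drives marrow cells towards macrophages and dendritic cells. There were 3 WT mice (WT 1, 2 and 3) and 3 Bach1 KO mice (KO 947, 948 and 949), all C57BL/6 and 11 weeks old, with 2 males and 1 female of each genotype. WT 3 and KO 949 were the females. The design compared the genotypes to ask what the absence of Bach1, a heme-regulated transcriptional repressor, changes in these cells. No source used here says how the KO allele was made or whether all cells of the mouse lacked Bach1.

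The genotypes were not balanced over slides. Slide 1 carried all WT arrays and KO 947, and slide 2 carried KO 948 and KO 949. Between 70.3% and 73.2% of spots were well above background on the WT arrays and between 62.5% and 65.1% on the KO arrays, and no spot was saturated. The single Bach1 probe was 0.54 lower in KO on the log2 scale (-0.54 ± 0.24 SE, n = 3 mice per genotype, limma adjusted p = 0.262), and it checks no label, since no source used here gives its position relative to the deletion. Hmox1, a classical Bach1 target that encodes heme oxygenase 1, rose by 2.14 ± 0.25 (limma adjusted p = 0.0114) and was higher in 3 of 3 KO mice than in any WT mouse. Of 7 tested macrophage marker genes, 0 passed the limma test (0 at an unadjusted p under 0.05; median difference 0.13), and their summed level overlapped between genotypes, at 324 to 364 in WT and 343 to 378 in KO, in units of the array's 75th percentile. Taken singly, 4 of the 7 did not overlap between genotypes (Adgre1, Lyz2 and Itgam higher and Csf1r lower in KO), beside 26.9% of all genes.

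Proteins of the bHLH-PAS family act as dimers. A class I subunit senses a signal and pairs with a class II partner: the aryl hydrocarbon receptor (AHR) binds planar aromatic ligands, HIF-1alpha and HIF-2alpha are stabilised when oxygen is low, and CLOCK and NPAS2 run the circadian oscillator. ARNT and ARNT2 are the general partners of AHR and the HIF subunits, BMAL1 (gene Arntl) is the partner of CLOCK and NPAS2, and the AHR repressor (gene Ahrr) competes with AHR for ARNT. In macrophages these dimers are known for the response to hypoxia, to dietary and microbial AHR ligands and to time of day, while ARNT2 is best known from neurons and kidney.

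The promoters of the partner genes are shown first, because Arnt2 and Arnt encode closely related partners and had very different KO minus WT values, and Ahrr is shown because it is a textbook target of AHR with ARNT. Each is the window of 250 bases directly upstream of the RefSeq transcript start, build GRCm38.p6, written 5′ to 3′ on the strand of the gene. The RefSeq table used here held such windows for 7 of the 9 genes, and promoters of Ahr and Epas1 were not analysed here. Capitals mark matches, on either strand, to the antioxidant response element core TGANNNNGC, which Bach1 with small Maf proteins is known to bind, to GCGTG (the core bound by AHR with ARNT), to ACGTG (the core bound by HIF with ARNT) or to the E-box CACGTG (bound by CLOCK with BMAL1), which contains ACGTG. The Arnt2 window lies at chr7:84410039-84410288 on the minus strand, that of Arnt at chr3:95434140-95434389 on the plus strand and that of Ahrr at chr13:74292332-74292581 on the minus strand.
Arnt2: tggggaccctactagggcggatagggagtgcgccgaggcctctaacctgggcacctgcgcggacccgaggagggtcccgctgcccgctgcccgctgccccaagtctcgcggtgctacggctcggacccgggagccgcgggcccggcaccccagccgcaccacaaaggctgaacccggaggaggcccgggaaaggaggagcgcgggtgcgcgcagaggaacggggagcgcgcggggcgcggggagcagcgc
Arnt: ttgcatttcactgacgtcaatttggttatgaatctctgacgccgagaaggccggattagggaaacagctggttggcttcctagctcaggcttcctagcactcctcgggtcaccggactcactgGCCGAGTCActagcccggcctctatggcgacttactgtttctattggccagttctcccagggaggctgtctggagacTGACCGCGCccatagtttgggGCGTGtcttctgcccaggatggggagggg
Ahrr: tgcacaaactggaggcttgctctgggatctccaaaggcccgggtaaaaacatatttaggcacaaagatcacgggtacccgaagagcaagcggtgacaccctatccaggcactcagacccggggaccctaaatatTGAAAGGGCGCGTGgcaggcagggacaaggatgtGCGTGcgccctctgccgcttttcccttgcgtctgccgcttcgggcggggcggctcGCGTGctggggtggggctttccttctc

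The Arnt2 window held none of the 4 motifs, which says only that these letters are absent from these 250 bases. It was 75.6% G or C, and 3.61% of all 32851 mouse windows were as rich or richer (median 52.4%). The Arnt window held TGANNNNGC at -127 and -50 and GCGTG at -29, positions being those of the first base of the match counted back from the transcript start. The Ahrr window held TGANNNNGC at -116 and GCGTG at -107, -82 and -27. Over all mouse windows of this length, TGANNNNGC occurred in 35.2%, GCGTG in 28.2%, ACGTG in 16.6% and CACGTG in 6.02%. Single matches are thus common, most of all to TGANNNNGC and least to CACGTG. A match is a description of the letters and no measurement of binding.

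Among the partners, Arnt2 stood far apart between the genotypes and Arnt and Arntl did not. Levels are log2 signals minus the log2 of each array's 75th percentile, and differences are KO minus WT on that scale. Arnt2 had a level of -6.70 in WT 1, -4.67 in WT 2 and -4.95 in WT 3, against -1.14 in KO 947, -1.51 in KO 948 and -1.57 in KO 949. Values of other genes follow the same order of arrays. Every KO array lay above every WT array, with a gap of 3.11 between the closest arrays, and WT 1 was the lowest of all. WT 1 was also the 1 array on which the probe was not well above background. In the deposited spot intensities the same probe gave 17.1 ± 6.88, 86.4 ± 11.2 and 81.6 ± 12.6 in WT, the error being that of the scanner software for the spot, and 989 ± 99.4, 802 ± 80.7 and 672 ± 67.7 in KO. The mean level was -5.44 ± 1.10 in WT and -1.41 ± 0.23 in KO (SD, n = 3 each). The difference was 4.04 ± 0.51 (SE) or 16.4-fold, with 2 of 3 WT arrays well above background. With WT 1 set at the lowest level well above background on its array, the difference was 3.72, or 13.1-fold. Since Arnt2 was chosen for this difference, it is given with no test.

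Every KO array lay above every WT array, so any split of these arrays gives the Arnt2 difference the same direction. Only its size by sex and slide is described here. The difference was 4.36 between the males, 3.38 between the single female of each genotype, and 4.30 for KO 947 against the 3 WT arrays of slide 1. Leaving out 1 array at a time gave 3.41 (without WT 1) to 4.42 (without WT 2). The authors' deposited table gave the probe -3.60, -1.56 and -1.81 in WT and 2.02, 1.61 and 1.56 in KO, each relative to the probe's median over the arrays.

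Arnt itself, the partner that most cells express, did not separate the genotypes. Its brightest probe read 3.49, 3.15 and 3.19 in WT and 2.79, 3.41 and 3.81 in KO. The KO arrays spanned the whole WT range, with KO 947 lowest and KO 949 highest of all 6. The means were 3.28 ± 0.18 and 3.34 ± 0.51 (SD, n = 3 each), and the difference was 0.06 ± 0.27 (SE; 95% interval -0.59 to 0.71). Within slide 1 alone the difference was -0.48, and KO 948 and 949 on slide 2 averaged 0.82 above KO 947. A second, dimmer Arnt probe read -2.23, -2.29 and -1.95 in WT and -2.26, -1.64 and -1.54 in KO, a difference of 0.35 ± 0.23 with overlapping groups.

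Arntl, which encodes the clock partner BMAL1, was read by 1 probe at -0.30, -0.22 and -0.36 in WT and -0.35, -0.60 and -0.47 in KO. KO 947 fell inside the WT range and KO 948 and 949 lay just below it. The means were -0.29 ± 0.07 and -0.47 ± 0.13 (SD, n = 3 each) with a difference of -0.18 ± 0.14 (SE; 95% interval -0.52 to 0.16), which became 0.04 when arrays were scaled to their median.

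**Figure D1:**
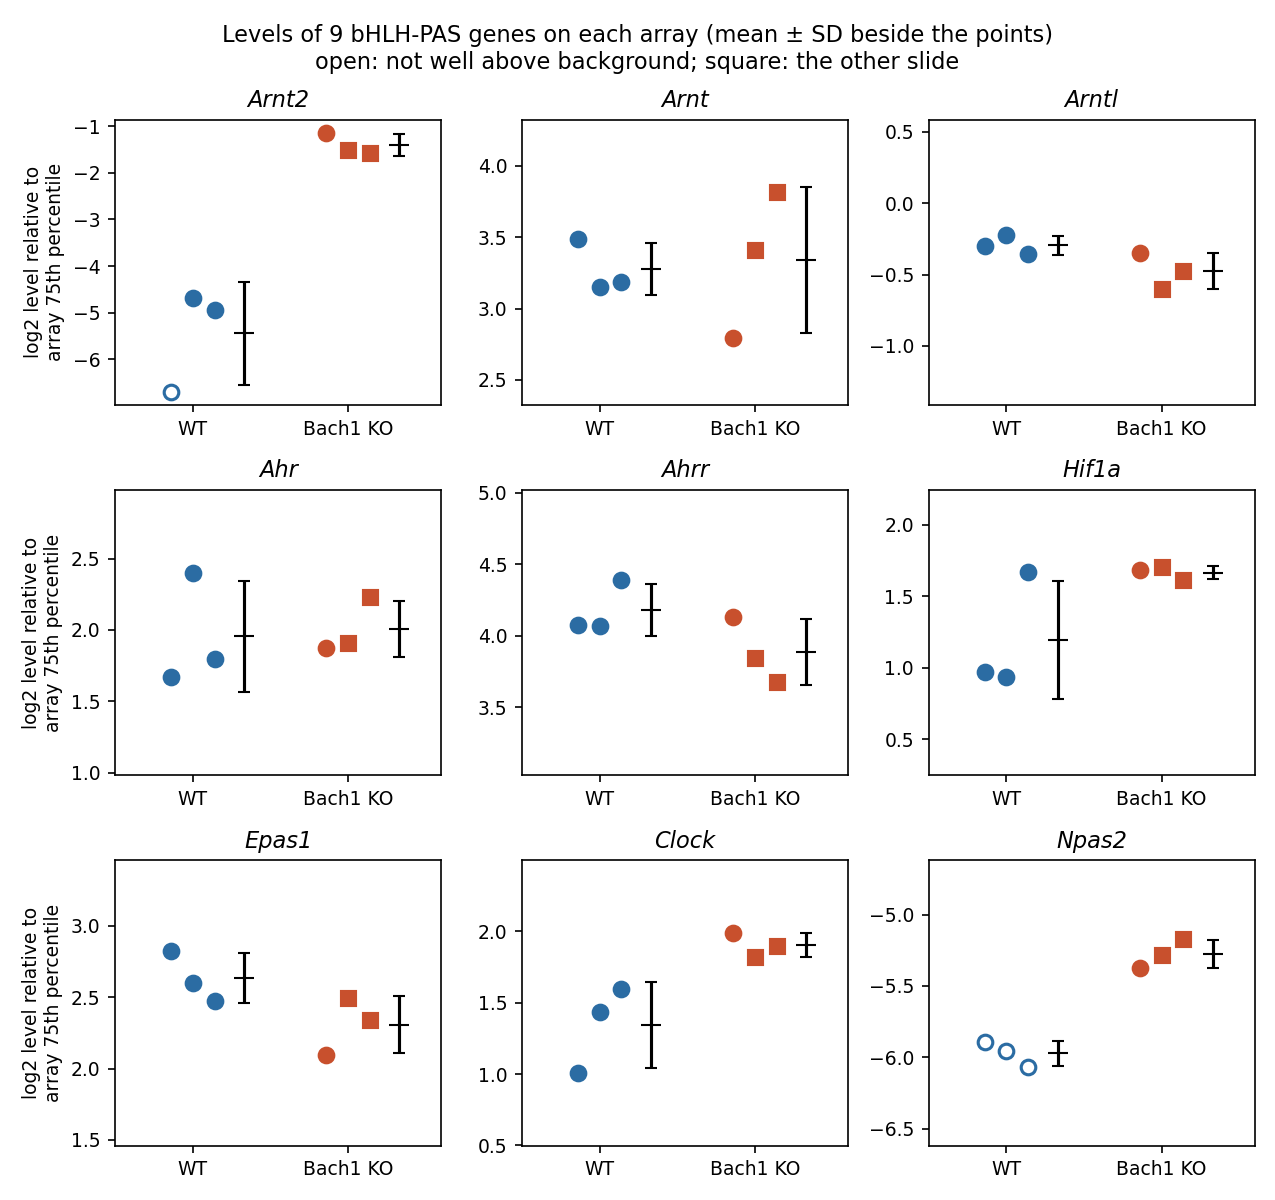
Level of each of the 9 genes (y axis, log2 signal minus the log2 of the array's 75th percentile; each panel has its own range) in 3 WT and 3 Bach1 KO mice, 1 point per array, with the mean ± SD beside the points; open points were not well above background and squares lay on slide 2. Arnt2, Clock and Npas2 show no overlap between the genotypes, with Arnt2 at -5.44 ± 1.10 in WT and -1.41 ± 0.23 in KO.

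Over the 9 genes at their brightest probe, 6 were higher and 3 lower in KO, with a median difference of 0.06 against -0.01 over all genes tested (with arrays scaled to their median, Arntl turned positive). The calls of the limma fit (Benjamini-Hochberg adjusted p under 0.05) included 1 of the 9, Arnt2, beside 3.41% of all genes, 1.14% higher (180 genes) and 2.27% lower (357 genes) in KO. Scaling arrays to their median turned that split to 384 higher and 230 lower. The genotypes did not overlap for 3 of the 9 (Arnt2, Clock and Npas2) beside 26.9% of all genes, and Npas2 passed the filter on dim probes only through the KO arrays. Because these genes were picked on this contrast, both counts are descriptions.

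In the AHR arm, neither the receptor nor its repressor separated the genotypes at its main probe. Ahr, the ligand-binding receptor, read 1.67, 2.40 and 1.80 in WT and 1.88, 1.91 and 2.23 in KO. The KO arrays all lay inside the WT range. The means were 1.95 ± 0.39 and 2.01 ± 0.19 (SD, n = 3 each), with a difference of 0.05 ± 0.23 (SE; 95% interval -0.50 to 0.60). A second Ahr probe was not well above background on any array and is not used. Ahrr, the repressor whose promoter is shown above, read 4.08, 4.07 and 4.39 in WT and 4.13, 3.84 and 3.68 in KO. KO 949 was lowest and WT 3 highest, and KO 947 fell inside the WT range. The means were 4.18 ± 0.18 and 3.88 ± 0.23, a difference of -0.29 ± 0.18 (SE; 95% interval -0.73 to 0.14). A second Ahrr probe, well above background on only 3 of the 6 arrays, read -5.68, -5.53 and -4.87 in WT and -5.28, -6.89 and -7.23 in KO, with overlapping groups and a difference of -1.11 ± 0.52.

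Of 4 chaperone genes that hold AHR in the cytoplasm, 0 passed the limma test in either direction (0 at an unadjusted p under 0.05), and their median difference was 0.15 against -0.01 over all genes. The largest were Hsp90aa1, an isoform of the HSP90 chaperone, at 0.40 ± 0.19 (adjusted p = 0.306), and Ptges3, the cochaperone p23, at 0.30 ± 0.15 (adjusted p = 0.316). Both genes were higher in each KO mouse than in any WT mouse, at 5.24 to 5.69 against 4.78 to 5.21 for Hsp90aa1. Such a lack of overlap was seen for 26.9% of all genes.

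Of 8 listed AHR targets, Cyp1a1 and Cyp1a2, the most AHR-dependent of them, were not well above background on any array, and 6 were tested. Of these, 0 passed (1 at an unadjusted p under 0.05, or 16.7%, beside 20.4% of all genes), with a median difference of 0.16. Cyp1b1, a cytochrome P450 that oxidises aromatic compounds and estrogens, read 0.80, 1.23 and 1.16 in WT and 1.83, 1.03 and 1.80 in KO, with KO 948 inside the WT range (0.49 ± 0.26, limma adjusted p = 0.341). Ugt1a6b, a glucuronosyltransferase that shares most of its transcript with other Ugt1a genes and may be read together with them, was 0.44 ± 0.16 (adjusted p = 0.192) with groups apart.

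Aldh3a1, an aldehyde dehydrogenase induced through AHR, is singled out after its values were seen, because its probes disagreed. The brighter probe, used for the count above, read 3.82, 4.19 and 3.46 in WT and 4.12, 4.12 and 4.0 in KO, a difference of 0.26 ± 0.21 (limma adjusted p = 0.534). A second Aldh3a1 probe read -1.58, -0.25 and -0.84 in WT and -7.15, -6.81 and -6.12 in KO. It was well above background on all WT arrays and on no KO array, so it passed the filter on dim probes only through the WT arrays. Its difference is therefore given with no test. The probe was at least 33.6-fold lower in KO (measured means -0.89 ± 0.67 and -6.69 ± 0.52, SD, n = 3 each). The bound sets the KO arrays at the lowest level well above background, or at the probe's own level where that was higher. No source used here gives the part of the transcript that each probe reads.

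In the HIF arm, Hif1a was higher in KO on average, with WT 3 among the KO values, and the probes of Epas1 disagreed. Hif1a, which encodes HIF-1alpha, read 0.97, 0.94 and 1.67 in WT and 1.68, 1.70 and 1.61 in KO. The KO arrays lay close together, and the female WT 3 fell within their range while both male WT arrays lay below it. The means were 1.19 ± 0.41 and 1.67 ± 0.05 (SD, n = 3 each), with a difference of 0.47 ± 0.22 (SE; 95% interval -0.06 to 1.01). The difference was 0.74 between males and -0.06 between the females.

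Epas1, which encodes HIF-2alpha, was read by 3 probes, all assigned to the same RefSeq transcript. The brightest, A_55_P2077448, read 2.83, 2.60 and 2.48 in WT and 2.09, 2.49 and 2.34 in KO. KO 948 fell inside the WT range and the other KO arrays lay below it. Its means were 2.63 ± 0.18 and 2.31 ± 0.20 (SD, n = 3 each), a difference of -0.33 ± 0.17 (SE; 95% interval -0.74 to 0.09). The second probe, A_51_P250058, read 1.18, 0.99 and 0.36 in WT and 1.95, 1.91 and 2.59 in KO. Here every KO array lay above every WT array, with a gap of 0.73. The means were 0.84 ± 0.43 and 2.15 ± 0.38, a difference of 1.31 ± 0.29 or 2.48-fold. Both probes were well above background on all 6 arrays, and averaging the probes of the gene turned the Epas1 difference to 0.37. The third probe was dim, at -4.76, -5.73 and -4.76 in WT and -5.87, -4.48 and -4.50 in KO, with overlapping groups (0.13 ± 0.45). Endothelial cells are rich in HIF-2alpha, and of 8 endothelial markers Tie1, Tek and Emcn were not well above background on any array, 5 were tested, 0 passed, and the summed level was 27.8 to 33.8 in WT and 26.4 to 29.0 in KO. The part of such cells in the Epas1 values was not tested.

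**Figure D2:**
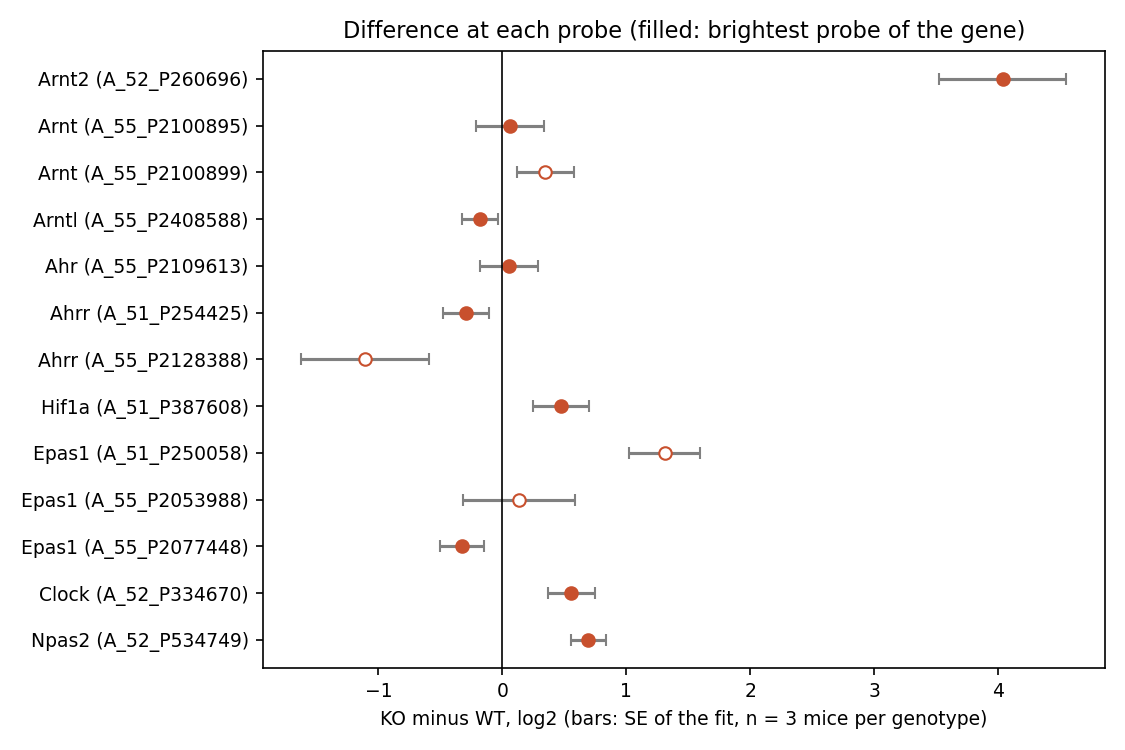
KO minus WT difference (log2, x axis) at each of the 13 probes that passed the filter, with the SE of the fit as bars (n = 3 mice per genotype); filled points are the brightest probe of a gene. Arnt2 lies alone at 4.04, and the Epas1 probes lie on both sides of 0, at -0.33 and 1.31 for the brighter pair.

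Oxygen sensing acts on HIF mainly through protein stability, by prolyl and asparaginyl hydroxylases and the VHL ubiquitin ligase. Of 9 such genes, 8 were tested and 0 passed the limma test, with a median difference of -0.07. An unadjusted p under 0.05 was reached by 1 (12.5%, beside 20.4% of all genes). Vhl, the substrate receptor of the ligase, read 2.62, 2.73 and 3.09 in WT and 2.04, 2.34 and 2.54 in KO. All KO arrays lay below all WT arrays, and the difference was -0.51 ± 0.20 (adjusted p = 0.219). Egln3, a prolyl hydroxylase, was 0.38 ± 0.50 (adjusted p = 0.715) with overlapping groups. Egln1, the main prolyl hydroxylase of most cells, was well above background on 2 arrays and was not tested.

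Of 20 listed HIF targets, 18 were tested and 0 passed the limma test. At an unadjusted p under 0.05 there were 5 (4 higher and 1 lower; 27.8%, beside 20.4% of all genes). The genotypes did not overlap for 6 (5 higher and 1 lower; 33.3%, beside 26.9% of all genes), and the median difference was 0.11 against -0.01 over all genes. Ankrd37, a hypoxia-induced ankyrin repeat gene, read 1.80, 2.25 and 1.39 in WT and 2.74, 2.55 and 2.78 in KO, with groups apart and a difference of 0.88 ± 0.24 (adjusted p = 0.104). P4ha1, a subunit of collagen prolyl hydroxylase, was 0.85 ± 0.20 (adjusted p = 0.0723), also with groups apart, while a second, dimmer P4ha1 probe gave 0.33 ± 0.27. Adm, the vasodilator adrenomedullin, was the 1 lower gene with groups apart, at -0.67 ± 0.24 (adjusted p = 0.186), and is named after its values were seen. Car9, a carbonic anhydrase that is a standard hypoxia marker, came closest to the threshold and is named for that reason after its values were seen. It read 0.94, 0.89 and 1.06 in WT and 1.55, 1.61 and 1.64 in KO, a difference of 0.64 ± 0.13 (adjusted p = 0.0572; 0.0361 to 0.317 over the alternatives).

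In the clock arm, Clock was higher in KO with no overlap between genotypes, its partner Arntl overlapped, and Npas2 was measurable on the KO arrays only. Clock, which encodes the class I subunit of the main circadian activator, read 1.01, 1.44 and 1.59 in WT and 1.99, 1.82 and 1.90 in KO. The KO arrays were all above the WT arrays, by a gap of 0.23. The means were 1.34 ± 0.30 and 1.90 ± 0.08 (SD, n = 3 each), a difference of 0.56 ± 0.19 (SE; 95% interval 0.11 to 1.01) or 1.47-fold. This interval is unadjusted and takes no account of how the genes were chosen. Clock was not among the calls of the limma fit, and 20.4% of all genes had an unadjusted p under 0.05. The Clock difference was 0.68 between males, 0.30 between females and 0.64 within slide 1.

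Npas2, the paralog that can stand in for CLOCK, was near the limit of detection. It read -5.89, -5.95 and -6.07 in WT, none well above background, and -5.37, -5.29 and -5.17 in KO, all well above background. Spot intensities, with the scanner software's error, were 29.9 ± 7.38, 35.6 ± 8.0 and 37.7 ± 10.3 in WT. In KO they were 52.6 ± 11.3, 58.5 ± 10.6 and 55.3 ± 10.3, so the errors of WT 3 and KO 947 overlapped. With the WT arrays set at the lowest level well above background, or at their own level where that was higher, Npas2 was 1.46-fold higher in KO (measured means -5.97 ± 0.09 and -5.28 ± 0.10, SD, n = 3 each). WT 2 entered at its own level, which was not well above background, so this value is no strict lower bound. The authors' deposited table gave a difference of 0.71 for this probe.

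Of 15 genes for clock repressors and nuclear receptors, 13 were tested, 1 passed upward and 0 downward, beside 1.14% of all genes upward and 2.27% downward, and the median difference was 0.42 against -0.01 over all genes. At an unadjusted p under 0.05 there were 3, all higher (23.1%, beside 20.4% of all genes). The genotypes did not overlap for 4, all higher (30.8%, beside 26.9% of all genes), so both shares were near those over all genes. Per2, a period protein that represses CLOCK with BMAL1, read -2.80, -2.99 and -2.95 in WT and -2.02, -1.88 and -2.18 in KO. Per2 was higher in 3 of 3 KO mice than in any WT mouse, and rose by 0.89 ± 0.15 (SE, limma adjusted p = 0.0347). The Per2 call rested on all arrays but one: leaving out any array other than KO 947 gave adjusted p from 0.0770 (without KO 949) to 0.133 (without KO 948), at 0.82 to 0.96. With the slide as a fixed block the difference was 0.89 with adjusted p = 0.124, and the range over all alternatives was 0.0126 to 0.188.

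The other clock genes differed in direction. Nr1d2, the nuclear receptor REV-ERBbeta, is named after its values were seen because it was next to the threshold. It read -0.58, -0.40 and -0.14 in WT and 0.72, 0.30 and 0.77 in KO, with groups apart (0.97 ± 0.20, adjusted p = 0.0520; 0.0360 to 0.177 over the alternatives). Also named after their values were seen were its paralog Nr1d1, and Per1, the paralog of Per2. Nr1d1 read -3.95, -3.68 and -5.55 in WT and -3.12, -3.72 and -4.14 in KO, with overlapping groups. Per1 differed by -0.39 ± 0.22 (adjusted p = 0.373), opposite in sign to Per2, with overlapping groups. The difference between these paralogs was not tested.

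Of 4 clock output factors, which are PAR bZIP genes and their antagonist driven from E-boxes or D-boxes, 0 passed (2 at an unadjusted p under 0.05), with a median difference of 0.32. Dbp read 3.19, 2.78 and 2.37 in WT and 3.70, 3.63 and 4.25 in KO. Its groups were apart, at 1.08 ± 0.27 (adjusted p = 0.0849), and a second Dbp probe gave 1.07 ± 0.21. Tef was 0.74 ± 0.26 (adjusted p = 0.170) with WT 3 and KO 947 overlapping, and 0.24 within slide 1. The other members, outside the rule for named genes, were Hlf at -0.10 and Nfil3, the repressor among them, at -0.21. RefSeq windows were matched for 14 of these 19 clock genes, and 5 of them (35.7%; Per1, Cry1, Ciart, Bhlhe41 and Tef) held CACGTG against 6.86% of all mouse genes with a window. The excess was not particular to CACGTG. The clock genes also exceeded all genes for GCGTG (92.86% against 30.85%) and ACGTG (64.29% against 18.49%), though not for TGANNNNGC (21.43% against 38.66%). Per2, the gene that passed, had no window here. No source used here gives the hour of harvest, so a shift of phase and a change of level cannot be told apart.

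**Figure D3:**
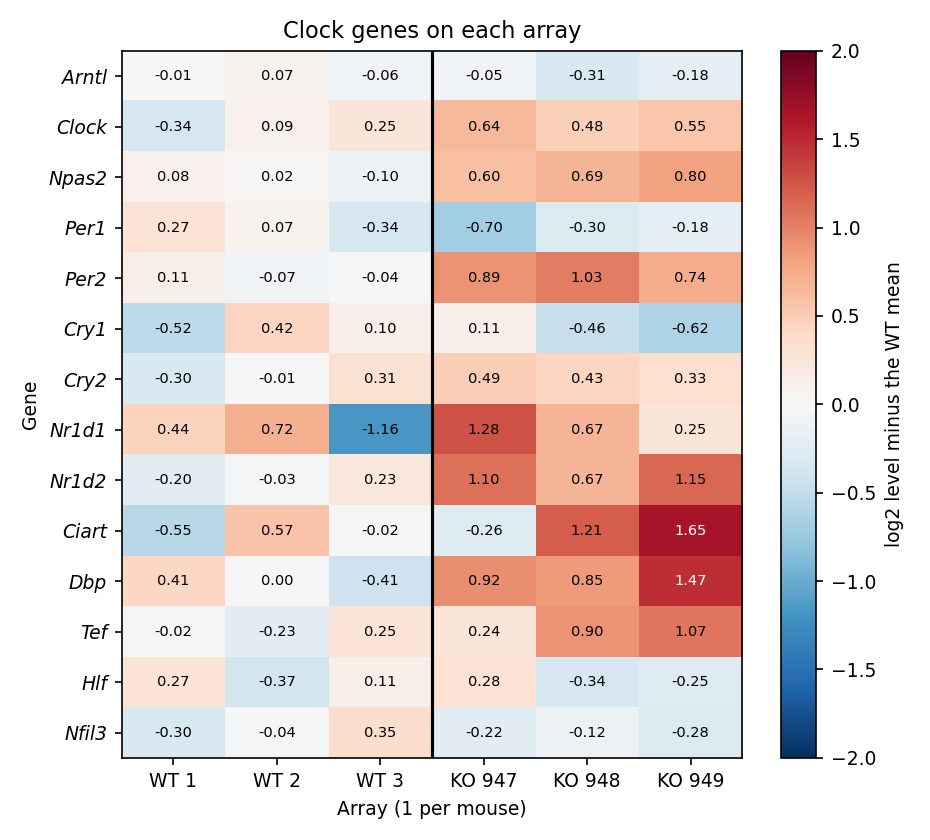
Level of clock genes on each array (columns, 1 per mouse; log2 level minus the mean of the 3 WT arrays, colour and printed value). Clock, Npas2, Per2, Cry2, Nr1d2 and Dbp are higher on every KO array than on any WT array, whereas Arntl, Per1, Cry1, Nr1d1, Ciart, Tef, Hlf and Nfil3 overlap.

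Of 10 other bHLH-PAS genes and p160 coactivators, which carry the same domain, 7 were tested and 0 passed, with a median difference of -0.24. An unadjusted p under 0.05 was reached by 2 (28.6%, beside 20.4% of all genes). Npas4, an activity-induced factor that pairs with ARNT2 in neurons, read 2.54, 1.76 and 1.42 in WT and 0.11, 0.91 and 0.63 in KO. All KO arrays lay below all WT arrays, at -1.36 ± 0.34 (adjusted p = 0.0849; 0.0597 to 0.196 over the alternatives). Npas3 was dim and lay at -0.54 ± 0.17 (adjusted p = 0.139) with groups apart. Sim1, a hypothalamic partner of ARNT2, was not well above background on any array.

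**Figure D4:**
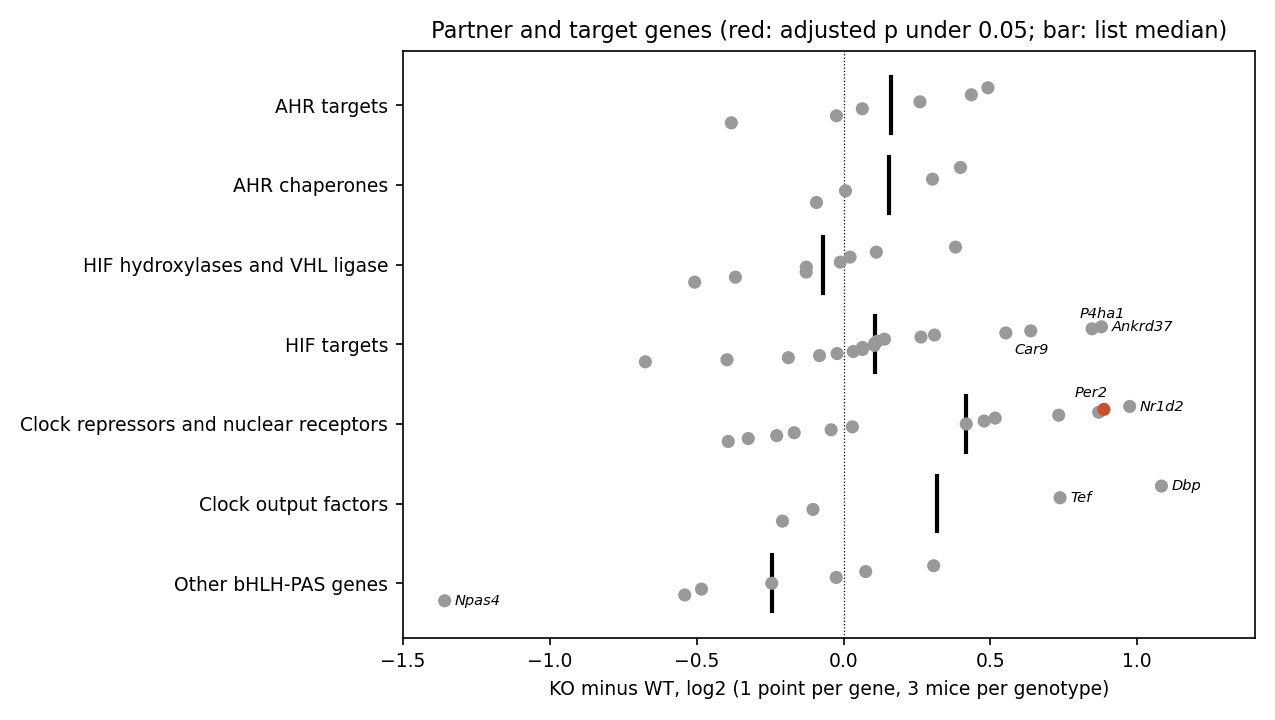
KO minus WT difference (log2, x axis) of every tested gene in 7 lists of partner, regulator and target genes (rows, 1 point per gene, 3 mice per genotype), with the list median as a bar and genes with adjusted p under 0.05 in red. Per2 at 0.89 is the only red point, and list medians run from -0.24 to 0.42.

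Several probes passed the filter for 24 genes of these lists, and in 12 of them the probes differed in the sign of the difference, so values of single probes carry that limit.

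Marker lists of other cell types stand beside the values above, and some but not all of them held genes called lower in KO. Over all genes, 2.27% fell past the limma threshold in KO, and the counts below stand beside that share. Stromal markers were lower in KO: 7 of 8 were tested, 3 fell past the limma threshold, the median difference was -3.33, and the summed level was 5.39 to 24.9 in WT and 0.436 to 1.45 in KO. Dendritic cell markers were lower too, with 4 of 9 past the threshold, a median of -1.45 and sums of 250 to 288 in WT and 179 to 199 in KO. Of 6 tested markers of mast cells, basophils and eosinophils 3 fell (median -3.20; 21.5 to 51.5 in WT and 0.803 to 18.1 in KO), and of 7 granulocyte markers 1 fell (median -0.90; 165 to 205 in WT and 97.0 to 117 in KO). Neuron markers, listed because ARNT2 and NPAS4 are best known there, had 5 of 7 tested and 0 past the threshold, with all 5 lower in KO (median -0.80; 3.33 to 6.83 in WT and 3.00 to 3.65 in KO) and Map2 and Stmn2 not well above background on any array. The neuron marker Rbfox3 passed the filter on dim probes only through the WT arrays. So did Mcpt8, 1 of the 3 mast cell, basophil and eosinophil markers that fell. Of 6 tested lymphocyte markers 0 passed (median -0.20; 2.75 to 3.85 in WT and 2.48 to 2.71 in KO), with Ms4a1 not well above background on any array. The median of each of these 6 lists was below 0, and their part in the differences described here was not tested. In RNA from whole cultures, fewer cells of a type and less RNA per cell cannot be told apart.

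The tested genes whose pattern over the 6 arrays was most like that of Arnt2 were, in order, Rnf183, Spic, Abca8b and Hmox1. Likeness was the root mean square difference from Arnt2 after each gene was centred on its own mean, over 15700 genes. Rnf183, a RING finger ubiquitin ligase, was closest at 0.53, with levels of -6.88, -6.47 and -5.36 in WT and -1.85, -1.88 and -2.14 in KO. It was well above background on 1 WT array and all KO arrays, and its measured difference of 4.28 became 3.80 with the other WT arrays set at the lowest level well above background. Spic, the transcription factor of red pulp macrophages and a known Bach1 target, followed at 0.62, with -0.71, 0.79 and -0.33 in WT and 3.00, 3.02 and 3.36 in KO. WT 1 was the lowest array for Arnt2, Rnf183 and Spic, and WT 2 was the highest WT array for Arnt2 and Spic. Abca8b, a lipid transporter, lay at 0.94, and its WT arrays, 1 of them well above background, spread from -6.51 to -2.34. The likeness of Rnf183 and Abca8b thus rests in part on values near background. Hmox1 at 1.08 had a smaller difference, of 2.14. Likeness was chosen on the same arrays and describes them only.

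**Figure D5:**
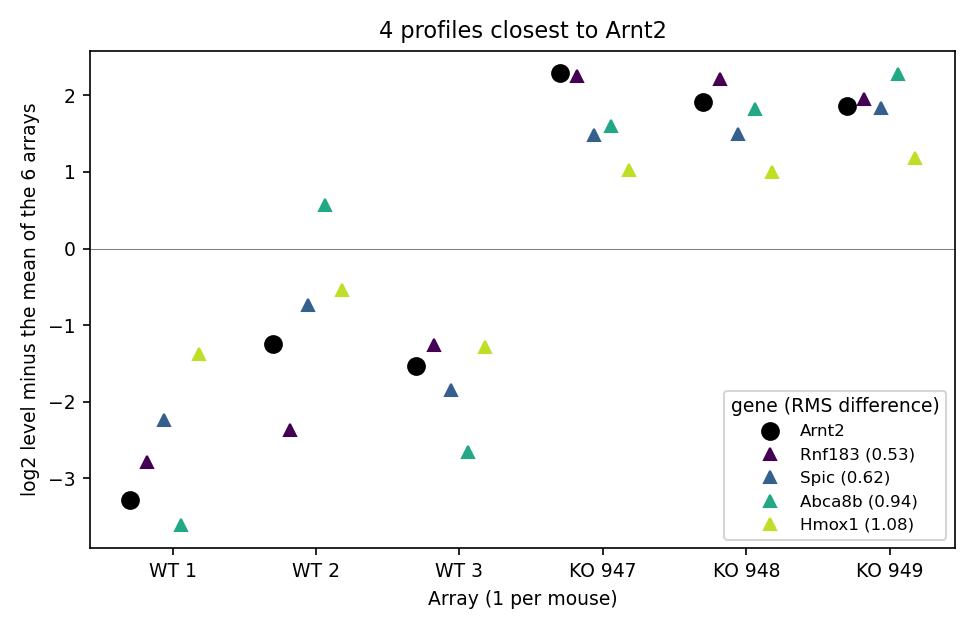
Level of Arnt2 (circles) and of the 4 genes closest to it (triangles) on each array (x axis, 1 per mouse), as log2 level minus the gene's mean over the 6 arrays. All 5 genes are above 0 on every KO array, and Abca8b on WT 2 is the only WT value above 0.

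Sex was the 1 contrast that played no part in choosing the genes, and females were compared with males in a fit that also held genotype. In the limma fit 0 of the 9 genes passed (adjusted p = 0.9999 for each, 0 at an unadjusted p under 0.05), beside 0.00635% of all genes, which is 1 of 15736. Over all genes, 447 had an unadjusted p under 0.05. The differences of the 9 genes ran from -0.10 for Epas1 to 0.32 for Hif1a, and that of Arnt2 was 0.25 ± 0.58 (SE, 2 females and 4 males), so the test could not resolve small differences.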

How the data were processed

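The 6 arrays were scanned and their spots quantified by the authors with Agilent's Feature Extraction software (10.7.3.1 in the file headers, while the submitters' processing notes name 9.1). The deposited gProcessedSignal is, per the file headers, a spot intensity after background subtraction and spatial detrending, with no scaling between arrays. The authors' deposited table of the series gives log2 values centred on each probe's median over the arrays, for 3215 probes. No source used here gives its scaling between arrays. Of the 9 genes it holds only Arnt2 and Npas2, whose probes separate the genotypes, so it served only as an alternative.

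For this work the log2 intensity of each of 62976 spots was reduced by the log2 of its array's 75th percentile, control and outlier spots were left out and spots of a probe were averaged. Transcript accessions were matched to RefSeq (GRCm38.p6) for gene symbols. A probe was kept if 3 or more of the 6 arrays marked it well above background, and a gene was represented by its brightest such probe, which gave 15736 genes. Genotype and sex were fitted with limma 3.58.1 (lmFit, eBayes) under R 4.3.3 (two-sided tests, p-values adjusted over all genes by Benjamini-Hochberg, threshold 0.05). Errors of differences are the fit's SE and intervals are 95%. The fit was tested on simulated data. The mice are separate animals, and their number limits the precision.

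The genes described, the lists and the tests were chosen with earlier results of these data known. Named were all 9 genes with every probe, from each pathway list the genes past the threshold (or the 2 largest differences where none passed), and the 5 genes most like Arnt2, 1 of which is not reported here. In the text on the pathway lists, tested genes whose differences are given outside this rule are marked as such. Cell type markers, label checks and genes not tested fall outside the rule and are not marked. Alternatives covered scaling (array median, quantile), normexp with offset 50 run on the median spot and background signals, filters on dim probes, the slide as a block, sex as a covariate, the probes of a gene, outlier spots kept and each array left out. Fitting each probe on its own and a genotype by sex interaction were added after seeing the data. The promoter windows came from RefSeq and were searched with Python 3.11.15.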

Additional observations from a re-analysis of the deposited data

Results flagged for a closer look

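Hif1a was the 1 gene of the 9 for which every KO male lay above every WT male while the KO female lay below the WT female. The difference was -0.0562 between the single females (WT 3 and KO 949) and 0.739 between the males (WT 1 and 2 against KO 947 and 948). The genotype by sex interaction was -0.80 ± 0.35 (SE) and did not pass the limma test over all genes (adjusted p = 0.737), in which 4 of 15731 genes passed. Arnt (-0.22 in males and 0.62 in females) and Ahr (-0.14 and 0.43) also differed in sign by sex, with overlapping males, and their interactions of 0.84 ± 0.51 and 0.57 ± 0.52 did not pass (adjusted p = 0.782 and 0.844). With 1 female per genotype, the female value has no replicate.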

How the results depend on the processing

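The count of 537 genes that differed between the genotypes was 275 with no filter on dim probes, 343 with quantile normalization, 305 with sex as a covariate, 255 with the slide as a random block, 84 with it as a fixed block and 24 on the slide with both genotypes alone. It ranged from 77 (without WT 1) to 900 (without KO 947) when 1 array was left out. Scaling to the array median moved the median of all genes to 0.21 and the split from 180 higher and 357 lower to 384 higher and 230 lower (62.5% against 33.5% higher); on the slide with both genotypes alone it was 2 and 22. Arnt2 kept its direction in all 17 alternatives, at 2.75 with normexp and 3.41 to 4.42 with 1 array left out. It was chosen for this difference, and leaving out an array could not change its sign. Clock (0.39 to 0.77) and Hif1a (0.35 to 0.71) also kept their signs, as did Npas2 and Ahrr, whose size moved from 0.38 (normexp) to 1.28 (quantile normalization) and from -0.70 (mean of its probes) to -0.05 (slide as a fixed block), while Ahr turned in 7 of 17 alternatives, Arnt in 6, Arntl in 1 and Epas1 in 1. A filter on all 6 arrays gave no value for Arnt2 and Npas2. The 1 call among clock repressors (Per2) became 0 with no filter, sex as a covariate, either slide block or the single slide, and 2 (Per2 and Nr1d2) with normexp, the array median or the filter on all 6 arrays; with 1 array left out it ranged from 0 to 1. The 0 calls among clock output factors ranged from 0 to 1 (Tef, without KO 947). HIF targets had 1 call with the array median or the filter on all 6 arrays (Car9) and 1 with the slide as a fixed block (Ddit4, -1.54). AHR targets had 1 with the mean of a gene's probes, where Aldh3a1 reversed to -2.77 because its dim probe entered the mean. The 1 gene that differed by sex was lost (0) with no filter, normexp or the slide as a fixed block, and the count ranged from 0 to 2 with 1 array left out. For the other changes the cause was not tested. No paired analysis was possible because the genotypes share no replicate number. Arrays give no counts, and signal near background limits Npas2, WT 1 at the Arnt2 probe and the dim probes of Ahrr and Epas1.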
